A study of Mus musculus with 6 samples.

Results

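The genes described here encode the proteins of the cytosolic ribosome, compared between undifferentiated and differentiating spermatogonia of the adult mouse. A gene was taken as a member when its symbol was Rpl or Rps followed by a number and at most 1 letter from a, x, y and l, or when it was Rplp0, Rplp1, Rplp2, Rpsa, Rpl3l, Rpl10l, Rpl22l1 or Rpl39l, with pseudogene names left out. This gave 67 members among 24973 measured genes (0.268%). RNA came from β-2M-SPα-6+c-kit- cells, the undifferentiated population, and from β-2M-SPα-6+c-kit+ cells, the differentiating population, written below as c-kit- and c-kit+, with 3 samples of each. All samples came from FVB/N mice of 2 to 3 months with no transgene or treatment named, and each held 10000 sorted cells of 1 mouse. The sorts of both populations kept cells without surface β-2 microglobulin, with α-6 integrin and in the side population of Hoechst dye efflux, so that c-kit was the marker that set them apart. Amplified cDNA from 500 pg of RNA was hybridized to 1 Affymetrix Mouse Gene 2.0 ST array per sample, and levels are given as the log2 signal that the authors deposited, on which a difference of 1 is a doubling.

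A cytosolic ribosome is built from a large and a small subunit, each a core of ribosomal RNA with many proteins bound to it, nearly all of them encoded by a single widely expressed gene. Ribosomal protein mRNAs are abundant in growing cells, and most begin with a 5′ terminal oligopyrimidine (TOP) tract, a C followed by a run of pyrimidines, through which the mTORC1 kinase pathway controls their translation. Male germ cells also express paralogues of a few of these proteins from autosomal gene copies, among them Rpl10l and Rpl39l. Spermatogonia are the mitotic germ cells of the testis, and gain of the receptor c-kit accompanies the passage from undifferentiated to differentiating spermatogonia.

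Of 76 symbols of core subunits searched, 59 had a value in the table. The other 17, Rpl39 and Rplp2 among them, were not analysed here. The remaining 8 members were paralogues or genes with a like name, namely Rpl3l, Rpl10l, Rpl22l1, Rpl39l, Rps27l, Rpl32l, Rpl6l and Rps4l, and RefSeq annotates the last 2 as pseudogenes. Ribosomal protein genes have many near-identical processed copies in the mouse genome, and probes that match a copy as well as its parent could not be told apart here.

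Promoters are shown for 5 of the members that differed between the populations, chosen because their printed stretch holds 1 of the sequence elements described next, and the other called members with a matched promoter (Rpl9, Rpl23, Rps15 and Rpl10l) held none there. RefSeq windows of the GRCm38.p6 assembly, from 250 bases before to 50 after the first listed start, were found for 49 of the 67 members, of which 10 had over 1 listed start. Each line gives the 60 bases before the start and the first 20 of the transcript, 5′ to 3′ on the gene's strand. Capitals mark CTTTCC, a pyrimidine run of the kind found at TOP starts, or CCGGAAG, the core recognized by ETS family factors such as GABPA. Rpl41 lies at chr10:128549149-128549228 on the minus strand, Rpl39l at chr16:10170168-10170247 on the plus strand, Rpl28 at chr7:4792905-4792984 on the plus strand, Rpl4 at chr9:64173327-64173406 on the plus strand and Rps27l at chr9:66946026-66946105 on the plus strand.
Rpl41: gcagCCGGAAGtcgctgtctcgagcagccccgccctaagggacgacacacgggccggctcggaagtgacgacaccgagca
Rpl39l: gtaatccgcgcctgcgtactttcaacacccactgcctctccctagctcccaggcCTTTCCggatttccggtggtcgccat
Rpl28: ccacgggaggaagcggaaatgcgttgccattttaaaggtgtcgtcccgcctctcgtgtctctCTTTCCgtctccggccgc
Rpl4: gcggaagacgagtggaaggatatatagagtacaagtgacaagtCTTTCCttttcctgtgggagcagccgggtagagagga
Rps27l: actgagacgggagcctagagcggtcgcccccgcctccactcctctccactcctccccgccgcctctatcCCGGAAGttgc

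Counted on both strands, CTTTCC occurred in the full window of 300 bases in 23 of the 49 matched members (46.9%), against 26.3% of the promoters of 27025 genes. CCGGAAG occurred in 16 (32.7%), against 9.12% of all promoters. AAGATGGC, the element bound by YY1, occurred in 3 (6.12%), against 2.88%. In the 80 bases printed the same elements occurred in 8 members (16.3%), 9 members (18.4%) and 1 member (2.04%), against 6.86%, 4.98% and 0.662% of all promoters. Thus CTTTCC and CCGGAAG were more frequent among the members than among all genes. For AAGATGGC the shares rested on 3 members and on 1, too few to be read. These counts are a description of the letters and not of factor binding or of TOP tracts. Only 8 of the matched members were among those with higher signal in c-kit- cells, and in the printed stretch 3 of them (37.5%) held CTTTCC, 1 (12.5%) CCGGAAG and 0 AAGATGGC.

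The marker used in the sort separated the arrays as labelled. Kit, the gene of the receptor used in the sort, lay 3.64 lower on the log2 scale in c-kit- cells and Stra8, a gene induced by retinoic acid, 1.87 lower, whereas Gfra1 and Etv5, a receptor and a target of GDNF signalling, lay 2.56 and 3.61 higher (limma, Benjamini-Hochberg adjusted p = 6.67e-06, 7.36e-05, 5.50e-05 and 3.74e-06). Of markers of undifferentiated spermatogonia 17 of 18 were higher, and of early meiotic genes 11 of 13 were lower. Of 10 markers of differentiating spermatogonia, Kit and Stra8 among them, 6 were lower, 1 was higher and 3 were not called. Array medians were 5.25 to 5.33, and arrays correlated at r = 0.986 to 0.992 within and 0.962 to 0.974 between populations over all genes. The number of arrays limits the precision, and because these are bulk samples, fewer cells of a type and less RNA per cell cannot be told apart. Leukocyte genes stood apart on c-kit+ arrays: 3 of 15 measured markers, Cd74, H2-Ab1 and C1qb, were lower in c-kit- cells, none was higher, and the mean of the list was 5.07 to 5.37 on the c-kit- arrays but 6.37, 6.08 and 5.20 on c-kit+ replicates 1, 2 and 3. Ptprc, which defines leukocytes, had signals of 3.43 to 3.47 and 3.62 to 4.15 in c-kit- and c-kit+ cells. In c-kit- cells 4 of 9 endothelial genes were higher (list means 4.70 to 4.82 against 4.29 to 4.44) and 3 of 8 peritubular myoid genes lower (4.95 to 5.09 against 5.36 to 5.51).

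Few ribosomal protein genes passed the test, and nearly all that did had more signal in undifferentiated cells. Called at a limma adjusted p under 0.05 over all genes, 10 of the 67 members were higher in c-kit- cells (14.9%) and 1 was lower (1.49%), while 56 did not pass. The same test called 9.33% of all genes higher, 8.79% lower and 18.1% in either direction. Without paralogues and genes of a like name, 7 of 59 core members were higher (11.9%) and 0 lower (1 at an unadjusted limma p under 0.05). Of the 46 core members with a mean signal above the median of all genes 5 were higher, where 15.7% of all genes were. The median log2 fold change of c-kit- over c-kit+ was 0.26 over the members, with quartiles of -0.01 and 0.48 and a range of -0.75 to 1.23, beside a median of -0.04 and quartiles of -0.21 and 0.15 over all genes. It was positive for 49 members (73.1%) and for 43.6% of all genes. The share of members with a positive value thus stood further from that of all genes than the share called higher did.

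**Figure D1:**
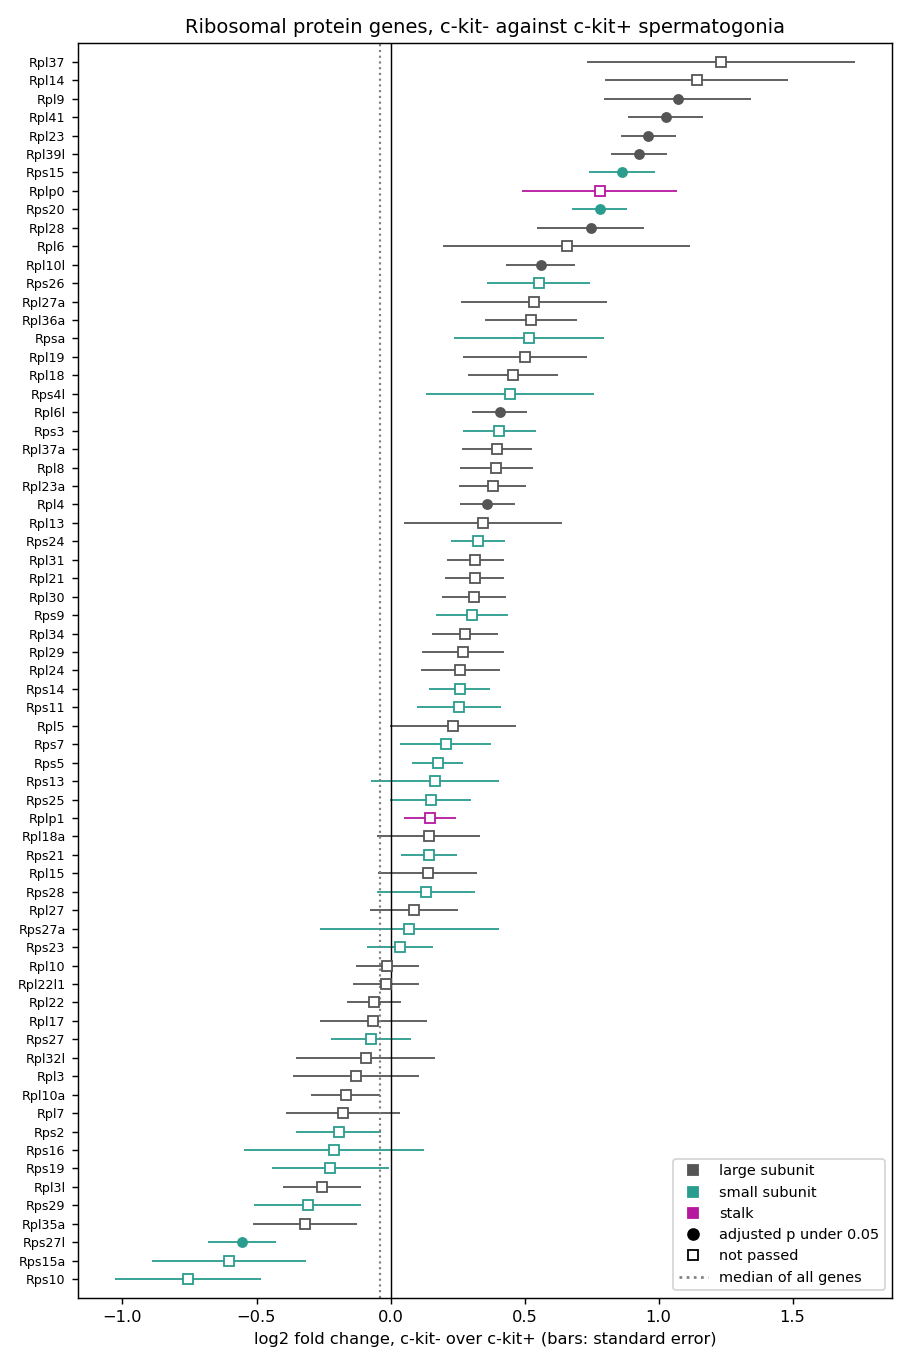
Log2 fold change of c-kit- over c-kit+ cells (horizontal axis) for each of the 67 ribosomal protein genes (rows), coloured by subunit, with bars of 1 standard error from limma, filled circles for an adjusted p under 0.05, open squares for the rest and a dotted line at the median of all genes. The values run from -0.75 (Rps10) to 1.23 (Rpl37), and 49 of 67 lie above 0.

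The order of the samples gave the same direction more often than the test. In 30 members (44.8%) all 3 c-kit- arrays lay above all 3 c-kit+ arrays, as they did for 15.9% of all genes. That share was not counted separately for genes with a mean signal above the median of all genes. In 2 members, Rpl3l and Rps27l, all c-kit- arrays lay below (2.99%, against 19.1% of all genes). At an adjusted p under 0.1 there were 22 members, 20 of them higher. All genes were not counted at that cutoff, so these counts have no background to be read against. Of the members, 53 had a mean signal above the median of all genes. Among all genes above that median 15.7% were called higher and 14.7% lower. Of the 53 members 8 were called higher, a share near that background, and 1 was called lower. By the thresholds the methods name, a fold over 1.5 and an unadjusted p under 0.02, 8 members were higher and 0 lower, against 7.14% and 5.81% of all genes. The single lower call, Rps27l, fell out there because its change was under 1.5-fold.

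**Figure D2:**
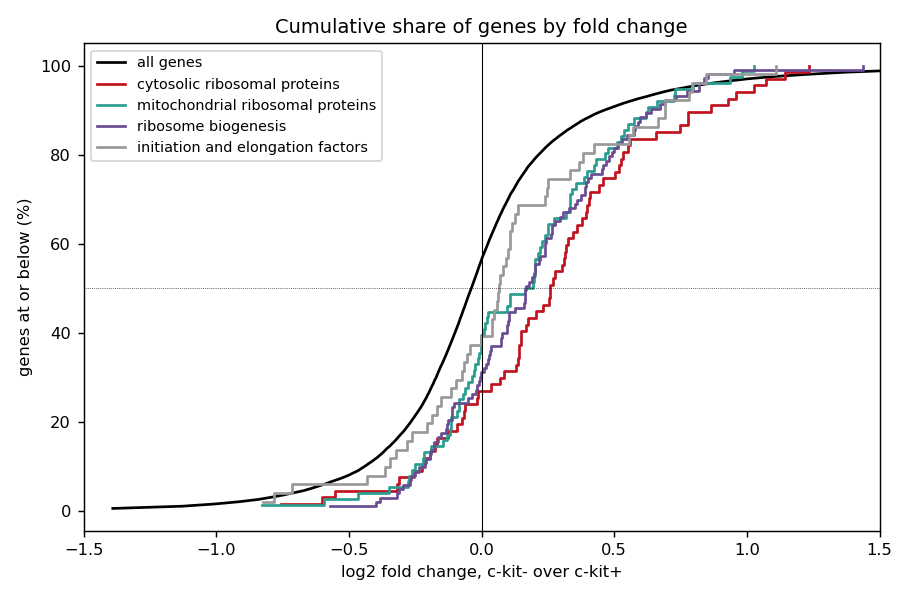
Cumulative share of genes (vertical axis, percent) up to each log2 fold change of c-kit- over c-kit+ (horizontal axis), for the 67 ribosomal protein genes, mitochondrial ribosomal proteins, ribosome biogenesis genes, initiation and elongation factors and all 24973 genes. The curve of the cytosolic ribosomal proteins crosses the middle at 0.26, that of all genes at -0.04 and the others at 0.18, 0.17 and 0.06 in that order, and the tails beyond 1.5 are not drawn.

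The shift was present in every array when each member was set against its own mean over the 6 arrays. The mean deviation of the members was 0.14, 0.18 and 0.07 log2 in c-kit- replicates 1, 2 and 3, and -0.12, -0.19 and -0.08 in the c-kit+ replicates. Between 43 and 52 members lay above their own mean on a c-kit- array, against 17 to 21 on a c-kit+ array. The third replicate of each population thus lay nearest to the other population, and c-kit+ replicate 3 was also the c-kit+ array with the lowest leukocyte mean. With c-kit+ replicates 1 and 2 both left out, 48 members still had a positive log2 fold change and the median was 0.20, but the c-kit+ side was then 1 array, assumed to vary like the others, and 1 member was called higher (Rpl23, limma adjusted p = 0.0469) and 0 lower. Over all genes the calls then numbered 527 higher and 239 lower. The part of leukocyte, endothelial or myoid RNA in the members' differences was not tested.

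**Figure D3:**
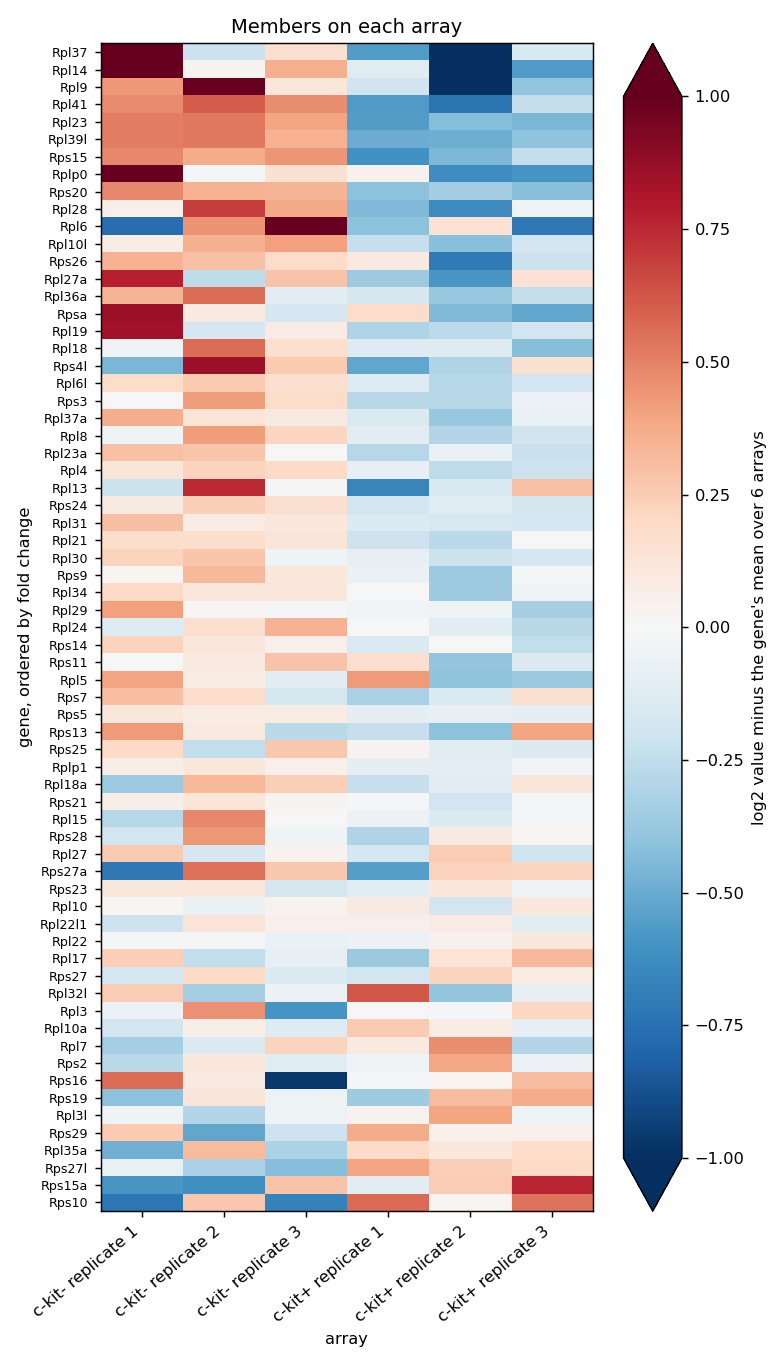
Heat map of the 67 ribosomal protein genes (rows, ordered by fold change) on the 6 arrays (columns), coloured by the log2 signal minus the gene's mean over the arrays, red above and blue below, with the scale ending at 1 and -1. Between 43 and 52 rows are above their mean in a c-kit- column and 17 to 21 in a c-kit+ column, and Rpl37, Rpl6 and Rps16 show the widest spread within a population.

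Leaving aside the stalk, 8 of 39 large subunit members were higher (20.5%, against 9.33% of all genes) and 0 lower (0 also at an unadjusted limma p under 0.05). Of the 28 with a mean signal above the median of all genes 6 were higher, where 15.7% of all genes were. The paralogues Rpl10l and Rpl39l and the annotated pseudogene Rpl6l were among these 6 and among the 8. No share was counted for the core genes of the large subunit alone. The subunits were not compared by a test. Of the 39 members 20 had all c-kit- arrays above (51.3%, against 15.9% of all genes) and the median was 0.32. The largest called difference was that of Rpl9, a protein near the base of the stalk. Its signal was 4.74, 5.37 and 4.42 in c-kit- replicates 1 to 3 and 4.11, 3.30 and 3.91 in the c-kit+ replicates, a log2 fold change of 1.07 (SE 0.27, limma adjusted p = 0.0290). All these signals were at the low end of the table or close to the array median, c-kit- replicate 2 was high and c-kit+ replicate 2 low, and the call was lost without c-kit- replicate 1 or 2 or c-kit+ replicate 2 or 3 (adjusted p = 0.0594 to 0.0901).

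Rpl41, the shortest ribosomal protein, and Rpl23, which also binds the p53 inhibitor Mdm2, had tighter values. The signal of Rpl41 was 10.09, 10.23 and 10.08 in c-kit- cells and 9.05, 8.90 and 9.38 in c-kit+ cells, a log2 fold change of 1.03 (SE 0.14, limma adjusted p = 0.00177), which is 2.04-fold. That of Rpl23 was 8.17, 8.19 and 8.06 against 7.10, 7.23 and 7.20, a log2 fold change of 0.96 (SE 0.10, adjusted p = 0.000544), the smallest adjusted p among the members. The populations did not overlap in either gene, the c-kit+ replicates of Rpl41 were spread more widely than those of Rpl23, and both genes stayed called with any 1 array left out.

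Rpl28 and Rpl4 passed the test by less. For Rpl28, a protein found in eukaryotic but not bacterial ribosomes, the c-kit- arrays gave 5.07, 5.70 and 5.39 and the c-kit+ arrays 4.57, 4.38 and 4.97, a log2 fold change of 0.75 (SE 0.20, limma adjusted p = 0.0345). The call was lost without c-kit- replicate 2 or 3 or c-kit+ replicate 1 or 2 (adjusted p = 0.0834 to 0.117). Rpl4, which lines the tunnel through which the nascent chain leaves, had some of the highest signals of the table, 12.12, 12.22 and 12.20 against 11.92, 11.75 and 11.79, and a log2 fold change of 0.36 (SE 0.10, adjusted p = 0.0442). Its groups did not overlap, yet leaving out any 1 array took the adjusted p to between 0.0563 and 0.130.

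Rpl6l, which carries a pseudogene annotation and the name of the large subunit protein Rpl6, gave 9.85, 9.93 and 9.82 in c-kit- cells and 9.53, 9.37 and 9.47 in c-kit+ cells. Its log2 fold change was 0.41 (SE 0.10, limma adjusted p = 0.0269), lost on leaving out any array but c-kit- replicate 1 (adjusted p = 0.0533 to 0.0885). Rpl6 itself gave 3.34, 4.56 and 5.41 against 3.69, 4.25 and 3.39, with overlapping groups and a log2 fold change of 0.66 that did not pass (adjusted p = 0.402). The probe sets of such copies can share signal, so neither value can be assigned to 1 gene with certainty.

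Several large subunit genes had large but scattered differences. Rpl37, a zinc finger protein of the large subunit, had the largest log2 fold change of all members, 1.23, with signals of 5.99, 3.88 and 4.26 against 3.53, 2.96 and 3.94, and did not pass (limma adjusted p = 0.139). Its SD among c-kit- replicates, 1.12, was the widest within a group, followed by 1.04 for Rpl6 and 0.78 for Rps16 of the small subunit. Rpl14, chosen here after its values were seen, gave 8.03, 6.73 and 7.06 against 6.59, 5.68 and 6.14, so that the groups did not overlap, with a log2 fold change of 1.14 and an adjusted p of 0.0517. In both Rpl37 and Rpl14 the first c-kit- replicate was the highest, and in Rpl14 the first c-kit+ replicate was also the highest of its group.

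The stalk, the flexible arm of the large subunit that recruits elongation factors, was measured through 2 members. Rplp1 had the highest mean signal of all members, 12.80, and gave 12.86, 12.90 and 12.85 in c-kit- cells and 12.71, 12.70 and 12.77 in c-kit+ cells, a log2 fold change of 0.15 that did not pass (limma adjusted p = 0.364). Rplp0, which anchors the stalk, gave 8.21, 7.15 and 7.33 against 7.21, 6.55 and 6.58, a log2 fold change of 0.78 (adjusted p = 0.106). The c-kit+ replicate 1 of Rplp0 lay between c-kit- replicates 2 and 3, so its groups overlapped, whereas those of Rplp1 did not.

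In the small subunit 2 of 26 members were called higher (7.69%, against 9.33% of all genes) and 1 lower (3.85%, against 8.79%). The share called higher was thus not above that of all genes. Of the 23 with a mean signal above the median of all genes 2 were higher, where 15.7% of all genes were. In 9 members (34.6%, against 15.9% of all genes) all c-kit- arrays lay above, and the median log2 fold change was 0.16. Rps15, a protein of the subunit's head close to the decoding site, gave 7.29, 7.17 and 7.25 in c-kit- cells and 6.20, 6.35 and 6.57 in c-kit+ cells, a log2 fold change of 0.86 (SE 0.12, limma adjusted p = 0.00203). Rps20, also of the head, gave 10.67, 10.53 and 10.52 against 9.78, 9.84 and 9.77, a log2 fold change of 0.78 (SE 0.10, adjusted p = 0.00136). Both stayed called with any 1 array left out.

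Other small subunit genes did not pass in either direction. Rps21, second in mean signal among the members at 12.37, gave 12.43, 12.49 and 12.40 against 12.35, 12.18 and 12.35, a log2 fold change of 0.14 (limma adjusted p = 0.427). At the other end, Rps16 had a mean signal of 3.98 and gave 4.55, 4.07 and 3.02 against 3.98, 4.002 and 4.29, with a log2 fold change of -0.21 (adjusted p = 0.741). The lowest log2 fold change of all members was that of Rps10, which lies at the mRNA entry side and was picked out here after its values were seen, with 4.79, 5.77 and 4.83 against 6.07, 5.53 and 6.05 and a value of -0.75 (adjusted p = 0.0987). Its groups overlapped through the second replicates, and Rps15a, with -0.60 (adjusted p = 0.204), also overlapped.

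**Figure D4:**
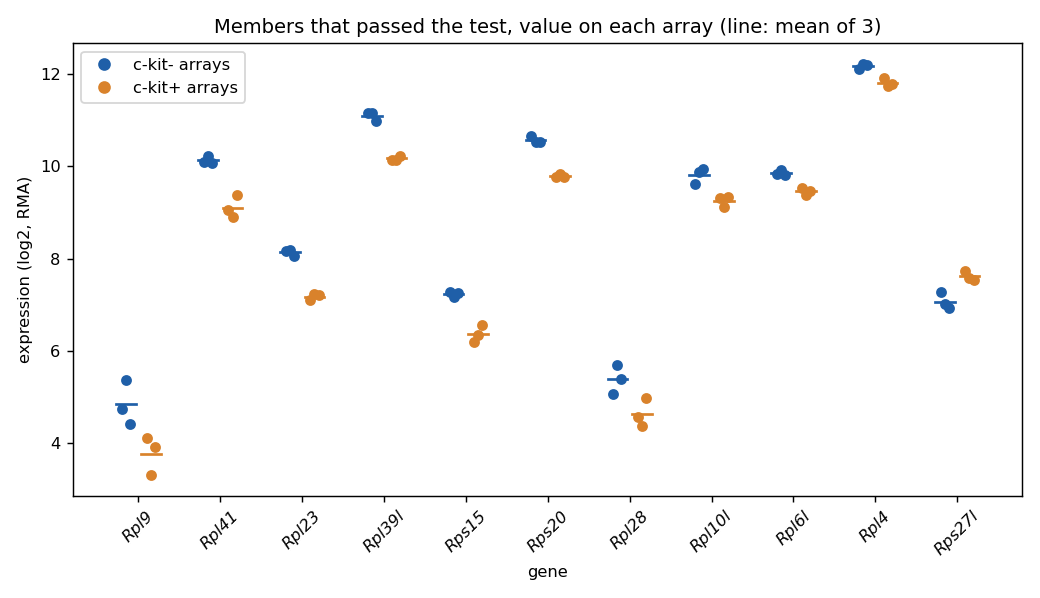
Log2 signal (vertical axis) of the 11 called ribosomal protein genes, with 1 point per array, blue for c-kit- and orange for c-kit+, and a line at the mean of 3 arrays. In 10 genes all c-kit- points lie above all c-kit+ points, and in Rps27l all lie below.

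Among the paralogues, the 2 known from male germ cells both had more signal in c-kit- cells. Rpl39l, the germ cell counterpart of the exit tunnel protein Rpl39, gave 11.15, 11.17 and 10.99 in c-kit- cells and 10.15, 10.15 and 10.23 in c-kit+ cells, a log2 fold change of 0.93 (SE 0.10, limma adjusted p = 0.000696), called with any 1 array left out. Rpl39 was not analysed here, so no difference from the partner could be formed and signal shared with it could not be checked. Rpl10l, an autosomal copy of the X-linked Rpl10 that is required for male meiosis in the mouse, gave 9.61, 9.89 and 9.95 against 9.31, 9.12 and 9.34, a log2 fold change of 0.56 (SE 0.13, adjusted p = 0.0185), lost without c-kit- replicate 2 or 3 or c-kit+ replicate 2 (0.0610 to 0.0681).

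Rpl10 itself had signals of only 2.87, 2.79 and 2.90 in c-kit- cells and 2.95, 2.68 and 2.97 in c-kit+ cells, among the lowest of the table, with a log2 fold change of -0.01 (limma adjusted p = 0.966) whose sign turned when single arrays were left out. Rpl32l, the member with the lowest mean signal, 2.80, gave 3.06, 2.47 and 2.74 against 3.42, 2.40 and 2.72 (log2 fold change -0.09, adjusted p = 0.860). In all, 8 members lay below the array median on all 6 arrays, which is close to the floor of the table for the lowest of them. The difference between the log2 fold changes of Rpl10l and Rpl10 was 0.57 (SE 0.12, exact two-sided permutation p = 0.1, adjusted over 5 pairs 0.333), and 0.1 is the smallest p that 3 arrays against 3 allow. With Rpl10 near the floor of the table this difference is in effect the change of the Rpl10l signal alone. As for Rpl6l and Rpl6, the probe sets of such copies can share signal. The values of Rpl10l and Rpl10 can therefore not be assigned to 1 gene each with certainty, nor does the low signal show that Rpl10 is little expressed.

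The X-linked members were Rpl10 and Rpl36a. Rpl36a, a large subunit protein, gave 7.89, 8.11 and 7.44 in c-kit- cells and 7.38, 7.17 and 7.31 in c-kit+ cells, without overlap and with a log2 fold change of 0.52 (SE 0.17, limma adjusted p = 0.0716). Without c-kit- replicate 3 its adjusted p was 0.0133, but leaving out any other array took it to between 0.118 and 0.198. Its autosomal copy Rpl36al, which falls outside the naming rule, gave 10.14, 10.23 and 10.13 against 9.98, 10.09 and 10.07 and a log2 fold change of 0.12 (adjusted p = 0.484). The difference of Rpl36al from Rpl36a was -0.40 (SE 0.20, exact permutation p = 0.2, adjusted 0.333).

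Rps27l, which p53 induces, was the single member called lower in c-kit- cells. It gave 7.27, 7.02 and 6.92 in c-kit- cells and 7.74, 7.58 and 7.55 in c-kit+ cells, a log2 fold change of -0.55 (SE 0.13, limma adjusted p = 0.0178). The call was lost without c-kit- replicate 2 or 3 or c-kit+ replicate 1 (0.0572 to 0.0673). Its partner Rps27 gave 5.39, 5.77 and 5.43 against 5.38, 5.79 and 5.64, a log2 fold change of -0.07 (adjusted p = 0.808) whose sign turned without c-kit+ replicate 2. The difference between the pair was -0.48 (SE 0.25, exact permutation p = 0.2, adjusted 0.333).

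For the last pairs the difference was within its error. Rpl22l1, the paralogue of the RNA-binding protein Rpl22, gave 5.27, 5.60 and 5.52 against 5.52, 5.55 and 5.37, and Rpl22 gave 6.45, 6.46 and 6.40 against 6.41, 6.51 and 6.57. Their log2 fold changes were -0.02 and -0.06 (limma adjusted p = 0.947 and 0.756), that of Rpl22l1 changed sign with the scaling of the arrays, and they differed by 0.04 (SE 0.14, exact permutation p = 0.5, adjusted 0.625). Rpl3l, the striated muscle paralogue of Rpl3, gave 5.40, 5.15 and 5.39 against 5.47, 5.83 and 5.40. Rpl3, a protein near the peptidyl transferase centre, gave 4.48, 4.99 and 3.95 against 4.53, 4.53 and 4.74. Their log2 fold changes of -0.26 and -0.13 (adjusted p = 0.293 and 0.779) differed by -0.13 with an SE of 0.42 (exact permutation p = 0.9, adjusted 0.9), so that a difference of either sign was within the error.

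**Figure D5:**
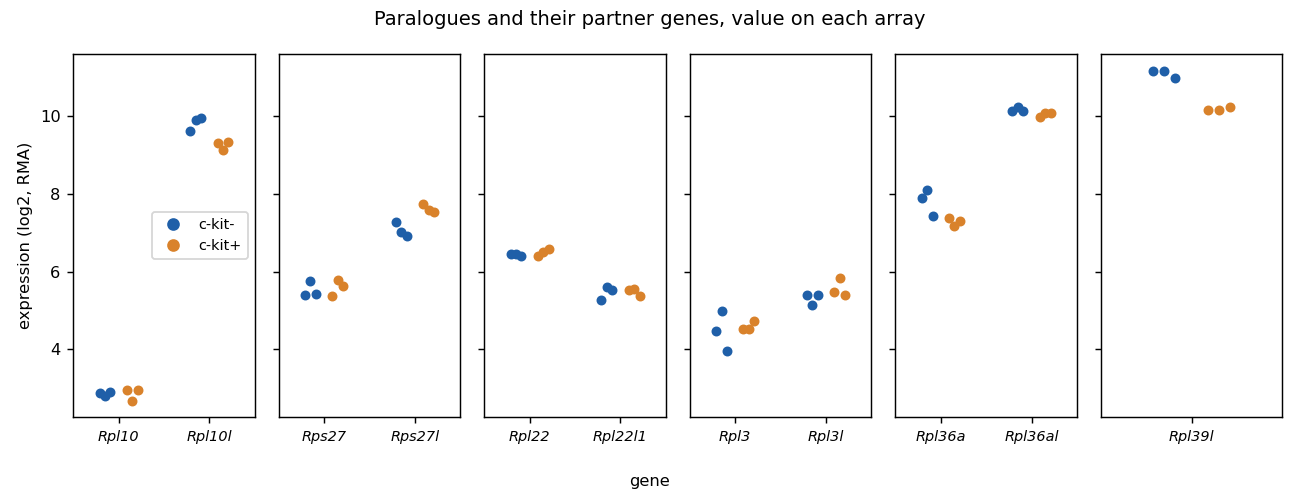
Log2 signal (vertical axis) on each c-kit- and c-kit+ array for the 5 measured pairs of a paralogue and its partner, and for Rpl39l alone, with 1 point per array. Rpl10l is higher (log2 fold change 0.56) and Rps27l lower (-0.55) in c-kit- cells, and the points of Rpl10 lie near the floor of the table.

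Small nucleolar RNAs that guide modification of ribosomal RNA are encoded within introns of many of these genes. The table held 20 of them inside the bounds of 15 members, a set formed after the members' values were seen. By limma 0 were called in either direction and 2 had an unadjusted p under 0.05, and their median log2 fold change was 0.07. Their array signal comes from a different RNA than the spliced mRNA of the host. Among 16 genes that host small nucleolar RNAs outside the ribosomal protein family, Snhg20, Snhg8 and Snhg4 were called higher (18.8%) and Snhg7 lower (6.25%). All 16 had a mean signal above the median of all genes, where 15.7% of genes were called higher and 14.7% lower. Of the called genes Snhg4 (log2 fold change 0.51, limma adjusted p = 0.0102) was called with any 1 array left out.

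Genes of the cytosolic subunits with other names gave 1 call. Of 9 such genes 7 were measured, with 1 higher (14.3%, against 9.33% of all genes), 0 lower and a median log2 fold change of 0.12. Rack1, a scaffold protein on the head of the small subunit, gave 11.41, 11.74 and 11.71 in c-kit- cells and 11.17, 11.21 and 11.21 in c-kit+ cells (log2 fold change 0.42, SE 0.12, limma adjusted p = 0.0435), lost on leaving out any array but c-kit- replicate 1 (0.105 to 0.130). Fau, picked out after its values were seen, encodes a ubiquitin-like protein fused to a small subunit protein and gave 5.61, 5.85 and 5.74 against 5.95, 6.14 and 6.03 (log2 fold change -0.31, adjusted p = 0.102). Of 10 rows annotated as ribosomal protein pseudogenes, Rps15a-ps5 was higher (log2 fold change 0.62, adjusted p = 0.0269) and none was lower, with a median of 0.29, and the Rps15a-ps5 call was lost without c-kit- replicate 1 or c-kit+ replicate 1 or 2 (0.0570 to 0.0924).

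Genes that build ribosomes had more higher than lower calls. Of 103 measured ribosome biogenesis genes 21 were called higher (20.4%) and 3 lower (2.91%), with a median log2 fold change of 0.17, and 40.8% had all c-kit- arrays above. All 103 had a mean signal above the median of all genes, where 15.7% of genes were called higher and 14.7% lower, so the share called higher was not far from that background. Gnl3l, a nucleolar GTPase, gave 6.95, 6.58 and 6.69 against 5.28, 5.26 and 5.38 (log2 fold change 1.44, limma adjusted p = 0.000207). Riok2, a kinase of late small subunit maturation, gave 9.33, 9.37 and 9.30 against 8.35, 8.26 and 8.55 (0.95, adjusted p = 0.000868). The RNA helicase Ddx27 (0.85) and Rrp15, a large subunit assembly factor (0.84), were also higher (adjusted p = 0.00276 and 0.00261), and all 4 were called with any 1 array left out. The lower genes were the helicase Ddx55 (-0.57, adjusted p = 0.0231), the RNA polymerase I factor Taf1d (-0.40, 0.0377) and the export adaptor Nmd3 (-0.38, 0.0306), but Ddx55 lost its call without c-kit- replicate 2 or 3 or c-kit+ replicate 2 or 3, Taf1d on leaving out any array but c-kit- replicate 3 and Nmd3 on leaving out any array (adjusted p up to 0.0812, 0.119 and 0.0931).

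The proteins of the mitochondrial ribosome, which is separate and translates the mitochondrial genome, gave counts of a like kind. Of 76 measured genes, 75 of them with a mean signal above the median of all genes, 16 were higher (21.1%) and 3 lower (3.95%), against 15.7% and 14.7% of all genes above that median. The median log2 fold change was 0.18 and 43.4% had all c-kit- arrays above. Mrps27 gave 7.36, 7.47 and 7.34 against 6.45, 6.07 and 6.57 (log2 fold change 1.03, limma adjusted p = 0.00186), and Mrpl1 gave 8.04, 7.98 and 8.14 against 7.11, 7.21 and 7.03 (0.94, adjusted p = 0.000711). Both of these were called with any 1 array left out, as was Mrpl18, which was lower (-0.59, adjusted p = 0.00810). A higher share of positive differences was thus not shown to be particular to the cytosolic ribosome, and no test compared the lists.

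Translation factors were called in both directions. Of 51 measured initiation, elongation and related factors 10 were higher (19.6%) and 5 lower (9.80%), with a median log2 fold change of 0.06. Of the 51 genes 48 had a mean signal above the median of all genes, where 15.7% of genes were called higher and 14.7% lower. The share called higher was thus not far from that background. Eif3f, a subunit of the initiation factor eIF3, gave 10.71, 10.63 and 10.65 against 9.99, 9.75 and 9.87 (log2 fold change 0.79, limma adjusted p = 0.00163). Eif4b, which stimulates the helicase that unwinds mRNA leaders, gave 9.84, 9.83 and 9.78 against 9.04, 8.97 and 9.09 (0.78, adjusted p = 0.00115). Eef1a1, which brings aminoacyl-tRNA to the ribosome and is itself a TOP mRNA, had the largest difference (1.11, adjusted p = 0.0234) but lost its call without c-kit- replicate 1 or 3 or c-kit+ replicate 1 or 3 (0.0719 to 0.0803).

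Lower in c-kit- cells were Abce1, which splits ribosomes after termination, and Eif2s3y, the Y-linked copy of a subunit of eIF2. Abce1 gave 8.997, 8.89 and 8.96 against 9.87, 9.75 and 9.69 (log2 fold change -0.82, limma adjusted p = 0.00115), and Eif2s3y gave 8.88, 8.71 and 8.85 against 9.57, 9.54 and 9.66 (-0.78, adjusted p = 0.00157). Neither pair of groups overlapped, and both genes were called with any 1 array left out.

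Regulators of TOP mRNA translation and of mTORC1 had 2 higher and 4 lower genes among 21, with a median of -0.09. Larp1b, a relative of the TOP-binding protein Larp1, gave 7.79, 8.12 and 7.98 against 8.80, 8.73 and 8.85 (log2 fold change -0.83, limma adjusted p = 0.00203), and Rps6kb1, the S6 kinase downstream of mTORC1, gave 6.89, 6.85 and 6.87 against 7.63, 7.51 and 7.52 (-0.68, adjusted p = 0.00216). Both were called with any 1 array left out. Larp1 (0.43, adjusted p = 0.0317) and Rptor, the scaffold of mTORC1 (0.52, adjusted p = 0.0305), were higher but lost their calls on leaving out any array but c-kit- replicate 1 (adjusted p of at least 0.0777 and 0.0706). The median of this list was near that of all genes, -0.04, and no test compared it with the other lists.

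Free ribosomal proteins such as Rpl5 and Rpl23 can bind Mdm2 and so restrain its action on p53. A list of this axis, which also holds genes of the MYC network, was chosen with earlier results of these data known. Of its 13 genes 6 were called higher in c-kit- cells (46.2%, against 9.33% of all genes) and 0 lower, with a median log2 fold change of 0.38. All 6 were among the 9 with a mean signal above the median of all genes, where 15.7% of all genes were called higher. A link between the ribosomal protein genes and this list was not tested. The p53 targets Sesn1 (1.30, limma adjusted p = 0.00227) and Pmaip1 (1.30, adjusted p = 0.00422) had the largest values and were called with any 1 array left out, whereas Mdm2 (0.38, adjusted p = 0.0441) was lost with any 1 left out (0.0618 to 0.137). The other calls were the p53 target Sesn2 (0.46, adjusted p = 0.0426), lost on leaving out any array but c-kit- replicate 1, and the MYC network genes Mycn (0.69, adjusted p = 0.0257), lost without c-kit- replicate 2 or c-kit+ replicate 2 or 3, and Max (0.54, adjusted p = 0.0122). Rps27l, a p53 target in other settings, went the other way at -0.55.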

How the data were processed

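The authors deposited log2 values, 1 per Entrez gene ID and array, which they made with RMA, a procedure that corrects background, brings the 6 arrays to 1 distribution and summarizes probes. The version of RMA and the genome build are not given in the sources used here. The table held 24973 genes from 2.03 to 12.97 with 0 missing values, and it was not normalized again. Genes were named from a RefSeq table of GRCm38.p6 (24481) and the platform table (93), and 399 stayed unnamed. All genes were tested in R 4.3.3 with limma 3.58.1 (lmFit, eBayes, c-kit- against c-kit+), with Benjamini-Hochberg adjustment over all of them and a call at an adjusted p under 0.05. The methods name an ANOVA per gene, which was run as an alternative. Paralogue pairs were tested by exact permutation over arrays. Each sample came from 1 mouse, but nothing says whether a mouse gave both populations. The limma p-values set each difference against the spread among samples of a population, moderated over all genes, with the 6 samples treated as independent.

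Members named were the called ones, both genes of each paralogue pair, the X-linked members and the 3 with the highest signal, the lowest signal or the widest spread, and in other lists up to 4 called genes in each direction. Members and lists were chosen with earlier results of these data known. The limma step was tested on simulated data. Alternatives were the scaling of arrays, a filter on low signals, other tests and thresholds, the replicate number as a block, arrays left out and a wider reading of the rule.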

Additional observations from a re-analysis of the deposited data

How the results depend on the processing

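The members' median log2 fold change of 0.26 was positive under every alternative run and ranged from 0.20 to 0.33, at 0.30 with cyclic loess, 0.30 for genes with a mean signal above the median of all genes and 0.20 with c-kit+ replicates 1 and 2 both left out, and between 42 and 52 members were positive (42 of the 53 with a mean signal above that median). The count of 10 members called higher became 17 with a mean-dependent prior variance, where 2434 of all genes were called higher and 2253 lower. The 1 lower call became 0 with the ANOVA of the methods and at the thresholds of the methods. With the ANOVA 9 members were higher, but Rpl9, Rpl28 and Rpl10l no longer passed (ANOVA adjusted p = 0.176, 0.170 and 0.0779), nor did Rps27l (0.0730). Over all genes the calls, 2331 higher and 2196 lower, became 1307 and 1205 with the ANOVA, and 1451 were lower at the thresholds of the methods. Testing only genes above the median signal called 15 members higher and 1 lower, beside 2275 and 2227 genes.

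With 1 array left out at a time, 5 to 11 members were called higher, the fewest without c-kit+ replicate 2 (5) and c-kit- replicate 2 (6). The lower calls were 0 to 2, with 2 without c-kit- replicate 2 and 0 without c-kit+ replicate 1. Over all genes 1727 to 2195 were then called higher and 1478 to 1889 lower. The median of the members lay between 0.23 and 0.33. Ribosome biogenesis genes called ranged from 12 to 23 higher, with 12 without c-kit+ replicate 2, and from 0 to 1 lower. Mitochondrial ribosomal protein genes ranged from 8 to 13 higher and 1 to 2 lower, and translation factors from 2 to 5 lower. The pair Rpl3l minus Rpl3 ranged from -0.43 to 0.21 and Rpl22l1 minus Rpl22 from -0.0502 to 0.15. The log2 fold change of Rpl10 ranged from -0.10 to 0.0397, of Rpl3 from -0.39 to 0.13, of Rps27 from -0.19 to 0.0193 and of Rpl22l1 from -0.0853 to 0.0792. That of Rpl22l1 was 0.0354 with cyclic loess, 0.0385 with array weights and 0.0938 with c-kit+ replicates 1 and 2 both left out. The cause of these changes was not tested, beyond the smaller number of arrays.

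Arrays of the same replicate number deviated together only weakly (r = 0.0999, 0.0973 and 0.137, against -0.0879 to -0.0174 for other pairs), so the numbers were not taken as pairing the samples, although each array correlated best with its own number. With the replicate number as a block, 12 members were higher and 2 lower, beside 2350 and 2163 of all genes, and 1 biogenesis gene was lower. Members that then passed were Rplp0, Rpsa, Rpl14, Rpl37 and, lower, Rps15a (adjusted p = 0.00581, 0.0259, 0.00183, 0.0489 and 0.0186), and those that no longer passed were Rpl4 and Rpl6l (0.0830 and 0.0547). Of the other genes named, Rack1, Mdm2, Nmd3 and Taf1d no longer passed with the block (0.0538, 0.0697, 0.0608 and 0.0624). Weak signals set a further limit, since 14 members lay in the range of signals under the median of all genes.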
